A study of Mus musculus with 12 samples.

Results

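Eosinophil granule and receptor genes were examined as 9 of the 34745 genes counted in mouse femoral bone marrow. They were taken by gene symbol alone, and each was found as a row of the table. Prg2, Prg3 and Epx encode granule proteins, Ear1, Ear2 and Ear6 encode eosinophil-associated ribonucleases, and Il5ra, Ccr3 and Siglecf encode surface receptors. The mice were male ICR animals, an outbred stock, with 3 mice in each of 4 groups, and their age is not given in the sources used here. The normal group received saline only. The model group received saline by mouth and cyclophosphamide, an alkylating drug toxic to dividing cells, injected intraperitoneally at 80 mg/kg/day on days 5 to 7 of a course that lasted 1 week. The QJSB group received the same injections together with Qi-Jing-Sheng-Bai granule, a formula of traditional Chinese medicine, at 3 g/kg/day by mouth. The leucogen group received them together with oral leucogen, a drug used against low leucocyte counts, at 20 mg/kg/day. No group received either drug without cyclophosphamide, so a drug was compared only on top of the injury. The table heads its columns Blank, Model, Positive and Stilbene, read here by the meaning of the words and by elimination as the normal, model, leucogen and QJSB groups in turn.

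Eosinophils are granulocytes that mature in bone marrow from progenitors in which GATA and C/EBP transcription factors act together, and interleukin-5 drives their expansion and release. Their granules are filled with major basic protein, eosinophil peroxidase and cationic ribonucleases. The mRNAs of these proteins are made mainly by immature eosinophils in the marrow, while the receptors for eotaxins and the lectin Siglec-F mark later cells. The RNA came from unsorted marrow, in which fewer cells of a type and less RNA per cell cannot be told apart.

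Library totals ran from 11172547 to 18545198 counts, and every pair of libraries of the same group differed by more than sampling noise. Levels are given as CPM, the count relative to the library total after TMM scaling, or, where genes are set against each other, as FPKM, which also divides by transcript length. A gene was called changed at a change of more than 1.5-fold, the size used by the study, with a Benjamini-Hochberg adjusted p under 0.05 in edgeR's quasi-likelihood test over all genes. Under this rule 8 of the 9 genes were lower in model than in normal marrow and Siglecf was not called, where 19% of the 14752 genes tested were called lower. The 8 genes also had no overlap between the model and normal libraries, all model values being lower, which held for 28.6% of genes. The median log2 fold change was -3.98 over the 9 genes and 0.02 over all genes tested. The 9 genes passed the filter on low counts in this comparison.

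**Figure D1:**
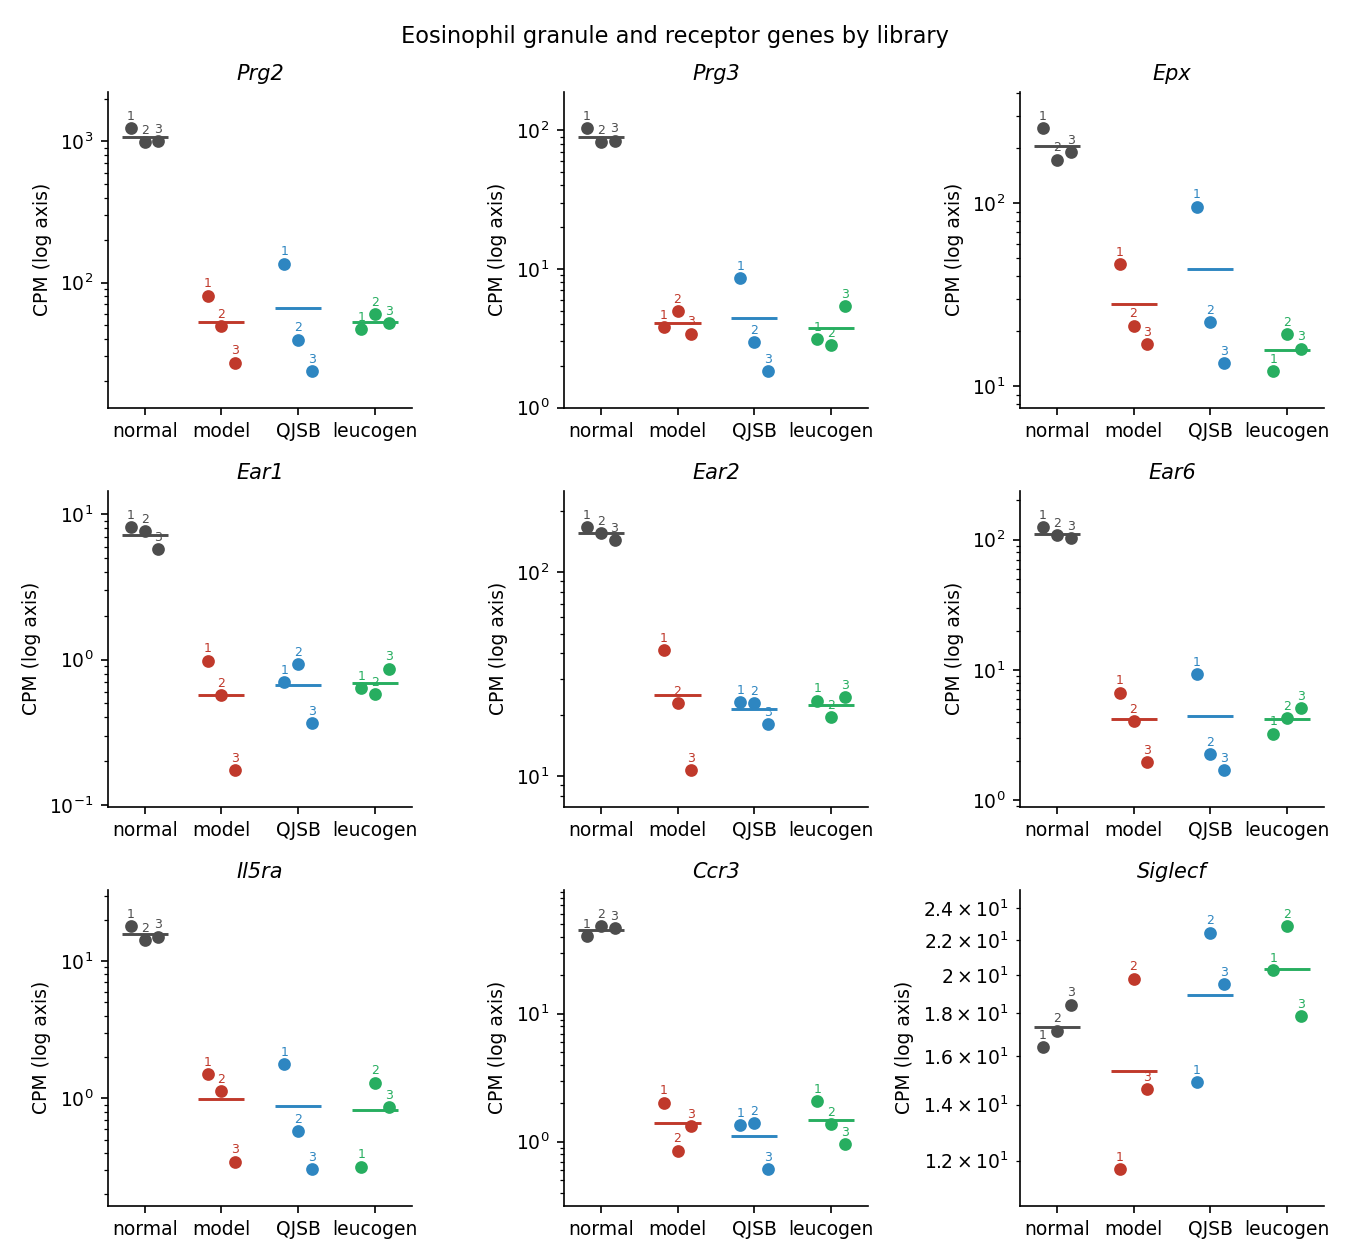
CPM of the 9 genes (vertical log axis, its range set per gene) in the 12 libraries by group; points are single mice numbered by replicate, and bars are group means. The 3 normal libraries lie above all 9 cyclophosphamide libraries for every gene but Siglecf, whose model values of 11.7 to 19.8 CPM span its normal values of 16.4 to 18.4 CPM.

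The granule protein genes were called lower than normal in all 3 cyclophosphamide groups. Prg2, the gene of major basic protein and the most abundant member by FPKM in every group, lies at chr2:84980461-84983632 on the plus strand (GRCm38). It had 1234, 987 and 1003 CPM in the normal libraries and 80.9, 49.4 and 27.1 CPM in the model libraries. It had 136, 39.5 and 23.6 CPM in QJSB and 46.9, 60.1 and 51.6 CPM in leucogen. All 9 cyclophosphamide libraries were far below the 3 normal ones, and the highest of them was the first QJSB library. Prg2 was 20.4-fold lower in model than in normal (log2 fold change -4.35, SE 0.41, adjusted p = 2.4e-04), and the model mean was 4.88% of the normal mean.

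Prg3, which encodes a second major basic protein, begins 4582 bases downstream of Prg2, and the coding sequences of the pair were 63.6% identical. Prg3 had 103, 82.4 and 84.2 CPM in normal and 3.81, 4.97 and 3.41 CPM in model. The QJSB libraries had 8.59, 2.95 and 1.83 CPM, and the leucogen libraries had 3.10, 2.83 and 5.38 CPM. The model values were close together and well apart from normal, with a log2 fold change of -4.47 (SE 0.20, adjusted p = 5.9e-06), while the QJSB values spread 4.70-fold. Epx, the gene of eosinophil peroxidase, lies at chr11:87864000-87875536 on the minus strand. It had 257, 174 and 190 CPM in normal and 46.4, 21.4 and 17.0 CPM in model. In QJSB it had 96.1, 22.4 and 13.3 CPM, and in leucogen 12.1, 19.2 and 16.0 CPM. Epx fell less than the major basic proteins in model, by 2.87 on the log2 scale (SE 0.40, adjusted p = 0.00139), and its first QJSB library lay closest to normal.

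Ear1, Ear2 and Ear6 belong to a mouse family of secreted ribonucleases on chromosome 14 that were named for their presence in eosinophil granules. Ear2 and Ear10 were 97% identical over the coding sequence, Ear1 and Ear2 95.1%, and Ear1 and Ear6 87.3%. The first 120 coding bases (GENCODE M21), shown because they bear on how reads can be split between the copies, are given with capitals where a base differs from Ear2.
Ear2: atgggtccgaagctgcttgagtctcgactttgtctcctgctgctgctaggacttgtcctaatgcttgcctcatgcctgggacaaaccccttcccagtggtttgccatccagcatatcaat
Ear1: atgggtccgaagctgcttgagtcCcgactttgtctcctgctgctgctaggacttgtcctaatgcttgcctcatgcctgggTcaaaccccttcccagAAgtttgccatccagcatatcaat
Ear10: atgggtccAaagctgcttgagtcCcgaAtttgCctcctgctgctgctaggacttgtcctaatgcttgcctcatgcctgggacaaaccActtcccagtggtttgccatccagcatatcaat
Ear6: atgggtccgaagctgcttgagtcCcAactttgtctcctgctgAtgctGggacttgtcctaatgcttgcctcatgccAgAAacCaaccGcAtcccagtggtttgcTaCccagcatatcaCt
In this stretch Ear1 differed from Ear2 at 4 bases, Ear10 at 5 and Ear6 at 13. Of the 50-base words in their annotated transcripts, 57.4% of those of Ear1 and 41.5% of those of Ear2 also occurred in another gene, against 0.954% for Ear6 and 0% for Prg2, Prg3, Epx and Ccr3. The span of Ear1 also overlaps the pseudogenes Ear-ps12 (451 bases) and Ear-ps9 (643 bases) on the same strand, and the spans of Ear1 and Ear2 overlap annotated non-coding genes on the opposite strand. How the authors' counting assigned such reads is not given in the sources used here, so the levels of Ear1 and Ear2 are uncertain and that of Ear6 is better founded.

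Ear6, at chr14:51853699-51854643, had 124, 108 and 102 CPM in normal and 6.70, 4.04 and 1.96 CPM in model. It had 9.29, 2.26 and 1.71 CPM in QJSB and 3.26, 4.28 and 5.09 CPM in leucogen. The drop from normal to model was the largest among the granule genes at 26.2-fold (log2 fold change -4.71, SE 0.40, adjusted p = 1.2e-04). Prg3 (-4.47) and Prg2 (-4.35) were close to Ear6 given the standard errors, so this rank is not established. Ear2, at chr14:44102654-44103534, had 166, 156 and 144 CPM in normal and 41.3, 22.8 and 10.7 CPM in model. It had 23.1, 22.8 and 18.0 CPM in QJSB and 23.4, 19.4 and 24.4 CPM in leucogen. Ear2 fell by 2.63 on the log2 scale in model (SE 0.45, adjusted p = 0.00428), the smallest change of the 8, and its first QJSB library did not stand apart. The change of Epx (-2.87) was close to that of Ear2 given the standard errors. Ear1 was scarce, with 112, 112 and 83 counts in normal (8.12, 7.69 and 5.73 CPM) and 17, 8 and 3 counts in model (0.98, 0.57 and 0.17 CPM). QJSB had 13, 16 and 6 counts and leucogen had 8, 8 and 9. Its log2 fold change from normal to model was -3.62 (SE 0.48, adjusted p = 6.2e-04), and no cyclophosphamide library reached the lowest normal one.

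The receptors did not move as a set. Ccr3, the receptor through which eotaxins attract eosinophils, lies at chr9:124021971-124031689. It had 40.5, 48.0 and 46.8 CPM in normal and 2.02, 0.85 and 1.33 CPM in model. QJSB had 1.34, 1.39 and 0.61 CPM, and leucogen had 2.07, 1.38 and 0.96 CPM. Ccr3 showed the largest change of the 9 genes, 31.5-fold lower in model (log2 fold change -4.98, SE 0.28, adjusted p = 1.0e-05), on 12 to 35 counts per model library. The change of Ear6 (-4.71) was close to that of Ccr3 given the standard errors. Il5ra, the ligand-binding chain of the interleukin-5 receptor, lies at chr6:106710357-106749037 on the minus strand. It had 17.9, 14.3 and 15.04 CPM in normal and 1.501, 1.13 and 0.35 CPM in model. QJSB had 1.77, 0.58 and 0.30 CPM, and leucogen had 0.32, 1.31 and 0.86 CPM, so the cyclophosphamide groups overlapped each other and not normal. Il5ra was 15.7-fold lower in model (log2 fold change -3.98, SE 0.41, adjusted p = 1.7e-04).

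Siglecf, which encodes an inhibitory sialic acid-binding lectin of mouse eosinophils and some macrophages, lies at chr7:43351341-43359531. It had 16.4, 17.2 and 18.4 CPM in normal and 11.7, 19.8 and 14.6 CPM in model. QJSB had 14.9, 22.5 and 19.5 CPM, and leucogen had 20.3, 22.8 and 17.9 CPM. Its libraries overlapped between groups in each of the 6 comparisons. The log2 fold change from normal to model was -0.17 (95% confidence interval -0.65 to 0.31, adjusted p = 0.554), so a change as large as that of any other member lay outside the interval. Which cells of the marrow carried the Siglecf RNA was not tested.

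The comparisons of QJSB and of leucogen with normal used the same 3 normal libraries. In QJSB 8 of 9 genes were called lower than in normal, where 19.9% of genes were, and in leucogen 8 of 9, where 19.8% were. The same 8 genes had no overlap with normal, against 29.9% of genes lower without overlap for QJSB and 32.3% for leucogen. Log2 fold changes in QJSB ran from -5.31 for Ccr3 to -2.21 for Epx, and Siglecf was at 0.14 (adjusted p = 0.550). In leucogen they ran from -4.89 for Ccr3 to -2.77 for Ear2, and Siglecf was at 0.25 (adjusted p = 0.136). The call of Epx in QJSB was close to the threshold (adjusted p = 0.0393). It was lost with scaling by total counts (adjusted p = 0.0520), without a filter (adjusted p = 0.135), and without any 1 of the 3 normal libraries or the second or the third QJSB library (adjusted p from 0.0541 to 0.0982).

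**Figure D2:**
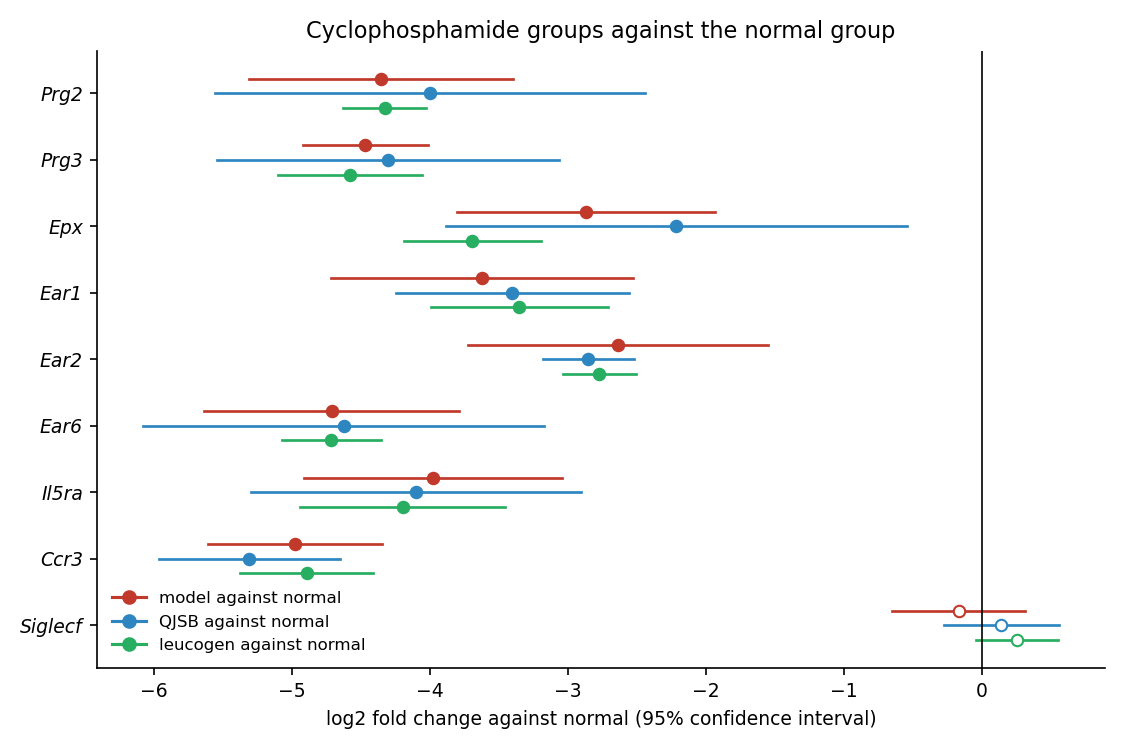
Log2 fold change of each gene in model, QJSB and leucogen against normal (horizontal axis) with 95% confidence intervals from edgeR; filled points passed the call rule and open points did not. Points of 8 genes lie between -5.31 and -2.21, while those of Siglecf lie between -0.17 and 0.25.

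Since a common scaling cannot change the ratio of genes within a library, the relative levels of the 9 genes were compared next, as FPKM. The normal order was Prg2 (1257 FPKM on average), Ear2 (212), Prg3 (79.98), Epx (70.7), Ear6 (68.0), Ccr3 (13.5), Ear1 (5.71), Siglecf (2.67) and Il5ra (2.56). The FPKM ranges of Prg3, Epx and Ear6 overlapped over the normal libraries, as did those of Siglecf and Il5ra, so these neighbours are not ordered beyond their spread. In model the order was Prg2 (68.1), Ear2 (37.8), Epx (10.7), Prg3 (3.95), Ear6 (2.87), Siglecf (2.57), Ear1 (0.51), Ccr3 (0.46) and Il5ra (0.18). In model the ranges of neighbours overlapped except between Epx and Prg3 and between Siglecf and Ear1. Of the summed FPKM of the 9 genes, Prg2 made up 73.4% ± 0.757 (SD, n = 3) in normal and 53.6% ± 0.386 in model. Ear2 made up 12.4% ± 0.888 and 28.5% ± 3.57, and Siglecf 0.158% ± 0.0252 and 2.55% ± 1.42. The share of Ear2 is uncertain, since 41.5% of its 50-base words also occurred in another gene.

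Per 100 FPKM of Prg2, Prg3 stood at 6.36, 6.35 and 6.38 in the normal libraries and at 3.58, 7.65 and 9.57 in model, where it spread around its normal value. Ear6 stood at 5.25, 5.70 and 5.33 in normal and at 4.32, 4.27 and 3.78 in model, lower without overlap. Epx stood at 6.09, 5.14 and 5.53 in normal and at 16.8, 12.7 and 18.4 in model, higher without overlap. In the leucogen libraries Epx stood at 7.53, 9.35 and 9.09 per 100 of Prg2, above all normal and below all model libraries. In QJSB it stood at 20.6, 16.6 and 16.5, overlapping with model and above all leucogen libraries. The ratio of Epx to Prg2 in the first QJSB library was thus the highest of the 12, but close to the other QJSB libraries in spite of the 7.201-fold spread of Epx itself. Ear2 stood at 15.7, 18.4 and 16.7 in normal and at 59.6, 53.8 and 46.0 in model, higher without overlap. In QJSB Ear2 stood at 19.8, 67.2 and 89.1 and in leucogen at 58.3, 37.7 and 55.1, so the first QJSB library was near normal in this ratio. The ratios of Ear2 are uncertain like its counts.

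With 3 libraries against 3 an exact two-sided permutation test cannot go below p = 0.1. This value was reached by 17 of the 48 comparisons made (8 ratios in 6 comparisons), and Benjamini-Hochberg adjustment over the 48 gave 0.282 at best. All 8 ratios share Prg2 and the comparisons share groups, so the 17 are not independent. The share of all genes whose ratio to Prg2 did not overlap was not determined, so the 17 cannot be called unusual. The 17 included Epx, Ear6 and Ear2 in model against normal, and Epx in leucogen against model and in QJSB against leucogen. These ratios were chosen after the levels had been seen and none passed a threshold of 0.05.

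**Figure D3:**
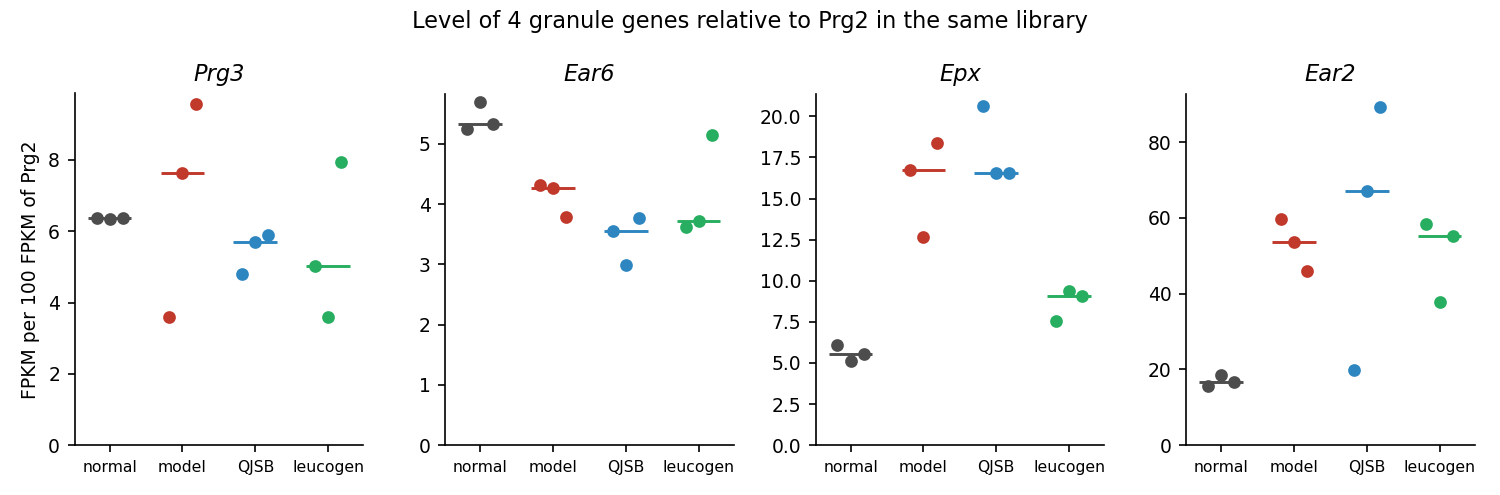
FPKM of Prg3, Ear6, Epx and Ear2 per 100 FPKM of Prg2 (vertical axes from 0, range set per gene) in each of the 12 libraries by group; points are mice and bars are group medians. Epx lies at 5.14 to 6.09 in normal, 12.7 to 18.4 in model, 16.5 to 20.6 in QJSB and 7.53 to 9.35 in leucogen.

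Whether either drug changed the genes was asked against model, whose 3 libraries both comparisons share. In QJSB against model 0 of the 9 genes were called by edgeR, where 0% of 14486 genes were called and 723 had an unadjusted p under 0.05. None of the 9 was among the 8 genes that DESeq2 called, nor among the 18 that edgeR called with the replicate number as a block. With the unadjusted p in place of the adjusted one, as the study used, 3.08% of genes were called and 0 of the 9. Log2 fold changes ran from -0.35 for Ccr3 to 0.62 for Epx, with adjusted p from 0.812 to 0.990. The intervals were wide, from -1.24 to 2.48 for Epx and from -1.35 to 2.00 for Prg2, so changes of more than 2-fold in either direction lay within them. All 9 genes overlapped between QJSB and model, where 9.8% of genes did not. The narrowest interval belonged to Siglecf, from -0.30 to 0.87.

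In leucogen against model 0 of the 8 genes tested by edgeR were called, where 23.1% of 14184 genes were called and 5825 had an unadjusted p under 0.05. Ear1 did not pass the filter on low counts in this comparison and was not tested. Epx had the largest difference, with a log2 fold change of -0.84 (95% confidence interval -1.73 to 0.06, adjusted p = 0.142). Siglecf was at 0.41 (-0.08 to 0.91, adjusted p = 0.188), and was called higher once the second model library was left out (0.66, adjusted p = 0.0364). The other 6 had log2 fold changes between -0.24 and 0.07. All 9 genes overlapped between leucogen and model, whereas 46% of genes did not. In QJSB against leucogen 0 of 9 genes were called by edgeR, where 24.6% of genes were called and 6004 of the 14266 tested had an unadjusted p under 0.05. All 9 overlapped between these groups, where 48.8% of genes did not. Epx was highest at 1.45 (95% confidence interval -0.36 to 3.26, adjusted p = 0.192). Without the first QJSB library 2 genes were called lower in QJSB, Prg2 (log2 fold change -0.77, adjusted p = 0.0245) and Ear6 (-1.10, adjusted p = 0.0308), whose signs in the full comparison were positive (0.30 and 0.05).

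**Figure D4:**
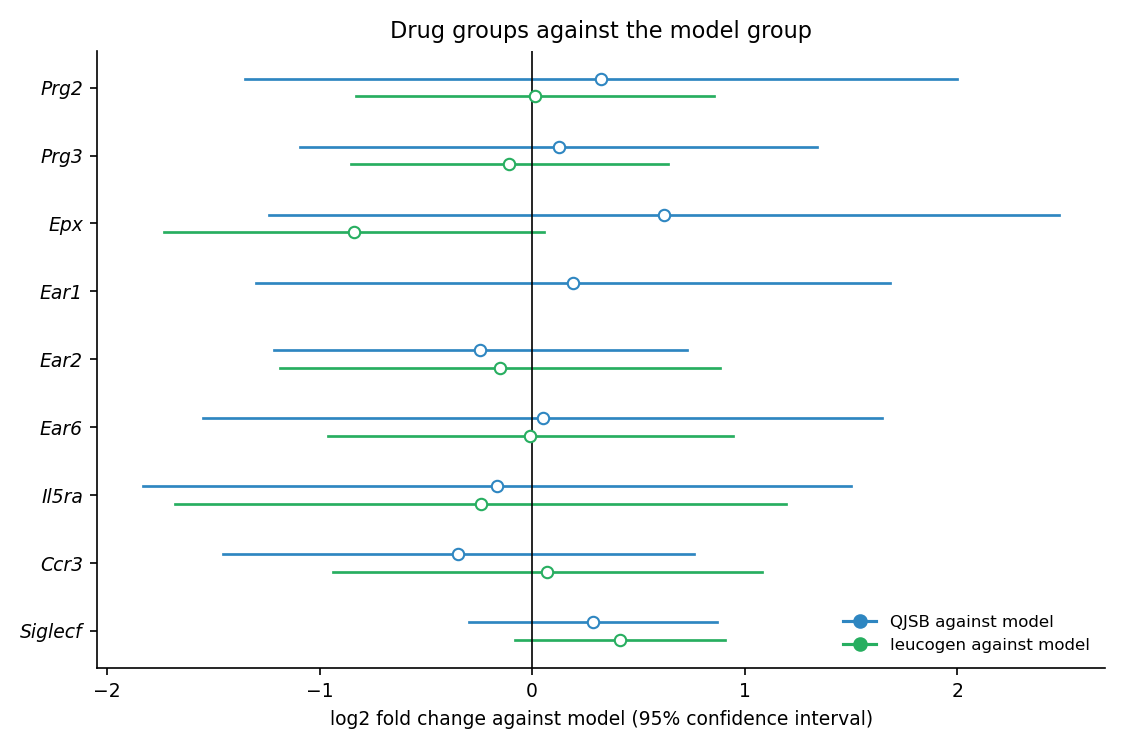
Log2 fold change of each gene in QJSB and in leucogen against model (horizontal axis) with 95% confidence intervals from edgeR; open points did not pass the call rule. Every interval includes 0, and Ear1 has no leucogen value because it was not tested there.

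The spread within groups differed between the genes. The first QJSB library had 5.38 times the mean CPM of the other two for Epx, 4.69 times for Ear6, 4.32 for Prg2, 4.01 for Il5ra and 3.60 for Prg3. For Ear1 (1.08), Ear2 (1.13), Ccr3 (1.34) and Siglecf (0.709) it stood closer to them. In model the first library was the highest for 7 of 9 genes and the third was the lowest for 7. The summed CPM of the 9 genes was 1594 to 1967 in normal, 76.6 to 195 in model, 79.3 to 292 in QJSB and 112 to 132 in leucogen. The sum, most of which is Prg2, thus spread least in leucogen among the cyclophosphamide groups, and the coefficient of variation of Prg2 was 12.6% there against 51.6% in model and 91.8% in QJSB. This did not hold for each gene, since Prg3 varied more in leucogen (37.2%) than in model (19.9%) and Il5ra about equally (59.7% and 59.4%). The same first libraries of model and QJSB had the lowest mean log2 CPM of 12 late neutrophil markers in their groups, 7.19 in model (9.30 and 8.60 in the others) and 7.82 in QJSB (10.6 and 10.1). They also had the highest mean log2 CPM of 7 erythroid markers, 5.60 in model (3.26 and 2.69) and 4.71 in QJSB (4.07 and 2.93). The same held for 7 B lineage markers, 2.82 in model (1.05 and -0.82) and 0.62 in QJSB (-0.86 and -0.24). For 7 basophil and mast cell markers it held in QJSB, 3.45 (2.14 and 1.83), but not in model, 2.68 (2.90 and 1.84). For the promyelocyte and the monocyte and macrophage markers it held in neither group. The part of these marker differences in the eosinophil values was not tested. Leaving out both first libraries, an analysis added after the data were seen, gave 0 calls among the 8 members tested in QJSB against model and 23 over all genes, with Epx at -0.14 and Prg2 at -0.31 on the log2 scale.

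Pearson's r of log2 CPM between pairs of the 8 genes other than Siglecf was 0.87 to 1.00 over the 12 libraries (28 pairs), which all contain the gap between normal and the rest. Over the 9 cyclophosphamide libraries it was 0.14 to 0.96 with a median of 0.60. Pairs with Siglecf had r of -0.35 to -0.07 over the 12 libraries. Outside the 9 genes, those whose log2 CPM followed the mean of the members most closely over the 12 libraries, among 12033 genes, were Nipa1 (r = 0.99), Blvrb, Agtr1a, Spire1, Smox, Samd11, Trib2, Mtss1, St3gal6 and Asb17os (r = 0.99). Agtr1a, an angiotensin II receptor gene, averaged 16.9 CPM in normal and 0.38 in model, and Blvrb, a biliverdin reductase gene, averaged 148 and 5.87 CPM. These correlations contain the same gap. Over the 9 cyclophosphamide libraries, which lack it, the r of the 10 genes was 0.76 to 0.94. The 10 genes were chosen by their r over the 12 libraries, which include these 9, so high values are favoured by the choice. How many other genes reach such values over the 9 was not determined.

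Genes that regulate the eosinophil lineage divided by direction in model against normal, with 3 of 12 called lower, 5 higher and 4 not called, beside 19% of all genes lower and 16.1% higher. Gata1, the factor without which eosinophils do not form and which erythroid cells and platelets also need, had 59.1, 55.4 and 60.3 CPM in normal and 6.01, 1.77 and 3.12 in model (log2 fold change -3.98, SE 0.38, adjusted p = 1.7e-04). Its cofactor Zfpm1 fell by 3.97 on the log2 scale (adjusted p = 5.2e-04) and Trib1, a pseudokinase that restrains C/EBP proteins, by 2.70 (adjusted p = 2.1e-04). The genes called higher, named here for the count although most lie outside the naming rule, were Cebpa, Cebpb, Spi1, Id1 and Xbp1, with log2 fold changes of 0.76 to 1.75. Spi1, the gene of PU.1, had 63.4, 63.3 and 63.9 CPM in normal and 96.7, 99.0 and 155 CPM in model (0.89, adjusted p = 0.00646). Gata2 (-0.88, adjusted p = 0.0738) and Cebpe, a factor of terminal granulocyte maturation (0.36, adjusted p = 0.291), did not pass the test. In QJSB against model 0 of the 12 were called, where 0% of all genes were. In leucogen against model Cebpa was called lower (-0.79) and Trib1 higher (1.47). The other 10 were not called there, where 23.1% of all genes were called in either direction.

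Windows of 250 bases before the annotated transcription start were searched for GATA words on either strand. The words were AGATAA with its variant AGATAG, and TGATAA with its variant TGATAG. The windows come from RefSeq (GRCm38.p6), which held 8 of the 9 members and not Prg2. The Ear1 window (chr14:43819640-43819889) lies inside the span of Ear1 in the count table (chr14:43818765-43875517), not before it. The Ear6 window holds 69 annotated exon bases (GENCODE M21). GATA words stood in 3 of the 8, Ccr3, Il5ra and Prg3, and in 26.5% of all 32851 windows. The C/EBP word TTNNGCAA stood in the windows of Ear1 and Ear2, which are 97.6% identical, and in 9.56% of all windows. The windows of Ccr3, Il5ra and Prg3 are printed with the matches in capitals, and that of Siglecf, which holds none, is printed beside them. The windows of Epx, Ear1, Ear2 and Ear6 hold no GATA word either. Whether Gata1 bears on the level of any member was not tested.
Ccr3, chr9:124021721-124021970, + strand: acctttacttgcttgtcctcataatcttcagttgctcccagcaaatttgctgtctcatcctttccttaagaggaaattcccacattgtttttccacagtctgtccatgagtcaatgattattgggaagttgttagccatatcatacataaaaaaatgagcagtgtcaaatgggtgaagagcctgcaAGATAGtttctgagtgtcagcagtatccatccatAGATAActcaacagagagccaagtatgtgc
Il5ra, chr6:106749038-106749287, - strand: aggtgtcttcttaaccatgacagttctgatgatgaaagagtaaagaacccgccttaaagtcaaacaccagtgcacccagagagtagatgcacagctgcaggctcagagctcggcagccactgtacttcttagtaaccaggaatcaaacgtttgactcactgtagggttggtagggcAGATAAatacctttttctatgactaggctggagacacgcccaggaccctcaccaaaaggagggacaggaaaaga
Prg3, chr2:84987965-84988214, + strand: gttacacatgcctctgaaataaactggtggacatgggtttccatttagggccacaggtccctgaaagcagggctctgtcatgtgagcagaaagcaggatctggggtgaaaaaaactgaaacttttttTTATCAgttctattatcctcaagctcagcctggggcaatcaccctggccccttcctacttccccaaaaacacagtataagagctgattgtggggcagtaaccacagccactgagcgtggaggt
Siglecf, chr7:43351091-43351340, + strand: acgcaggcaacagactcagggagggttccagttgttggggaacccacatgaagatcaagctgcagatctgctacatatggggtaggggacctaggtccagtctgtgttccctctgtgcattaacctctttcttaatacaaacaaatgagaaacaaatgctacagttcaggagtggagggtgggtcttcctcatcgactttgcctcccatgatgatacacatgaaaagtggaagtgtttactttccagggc
The Prg3 match is the word TGATAA read on the other strand, and the Ccr3 window holds 2 matches. A match describes the letters in the window and is not evidence of binding.

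Of 14 listed receptor genes beyond the members, 12 were tested in model against normal. Of these, 6 were called higher, 2 lower and 4 not at all, where 16.1% of all genes were called higher and 19% lower. The share called lower was near that of all genes. Csf2rb, the signalling chain that the receptors for interleukin-5, interleukin-3 and GM-CSF share, had 87.0, 92.1 and 93.5 CPM in normal and 262, 334 and 637 CPM in model (log2 fold change 2.18, SE 0.32, adjusted p = 0.00147). The chain specific to interleukin-5, Il5ra, was lower in all 3 model libraries than in any normal one, while the shared chain was higher. Which cells of the marrow carried the Csf2rb RNA was not tested. Csf2rb2, a near copy specific to the mouse interleukin-3 receptor, rose by 2.20 and Csf2ra, the GM-CSF chain, by 0.59 on the log2 scale, the last just past the fold cutoff. Csf2rb and Csf2rb2 are similar in sequence, and their counts may share reads. Il1rl1, the interleukin-33 receptor also found on basophils and mast cells, fell by 2.94 (adjusted p = 0.00224).

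The ligands were scarce in marrow. Il5 had 0 to 2 counts in every library, and Ccl11, which encodes eotaxin-1, likewise had 0 to 2. Ccl24, which encodes eotaxin-2, had 0 to 13 counts. None of these ligands passed the filter on low counts, so none was tested. Ccl24 had 1, 0 and 0 counts in leucogen, below its 5, 3 and 3 in normal and 4, 2 and 2 in model without overlap, but on very few counts. Among the genes tested, 32.3% were lower without overlap in leucogen than in normal, and 46% did not overlap between leucogen and model. Of 11 ligand genes 3 were tested in model against normal, of which Il33 (log2 fold change -2.83) and Ccl5 (-4.44) were called lower and Tslp higher (2.50), all on low counts of at most 62 per normal or model library. Among 6 listed enzymes and products 2 were tested. Alox15, the lipoxygenase of eosinophils and some macrophages, had 1206, 1037 and 1158 counts in normal and 3, 2 and 0 in model, so its fitted log2 fold change of -9.48 depends on very few counts. QJSB had 12, 20 and 7 counts of Alox15 and leucogen 13, 6 and 11, each above all model libraries. The gene did not pass the filter in either comparison with model and was not tested. Among the genes tested, 9.8% did not overlap between QJSB and model, and 46% between leucogen and model. Cd63, a granule membrane tetraspanin found in many cells, was higher in model (0.99, adjusted p = 0.00137).

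**Figure D5:**
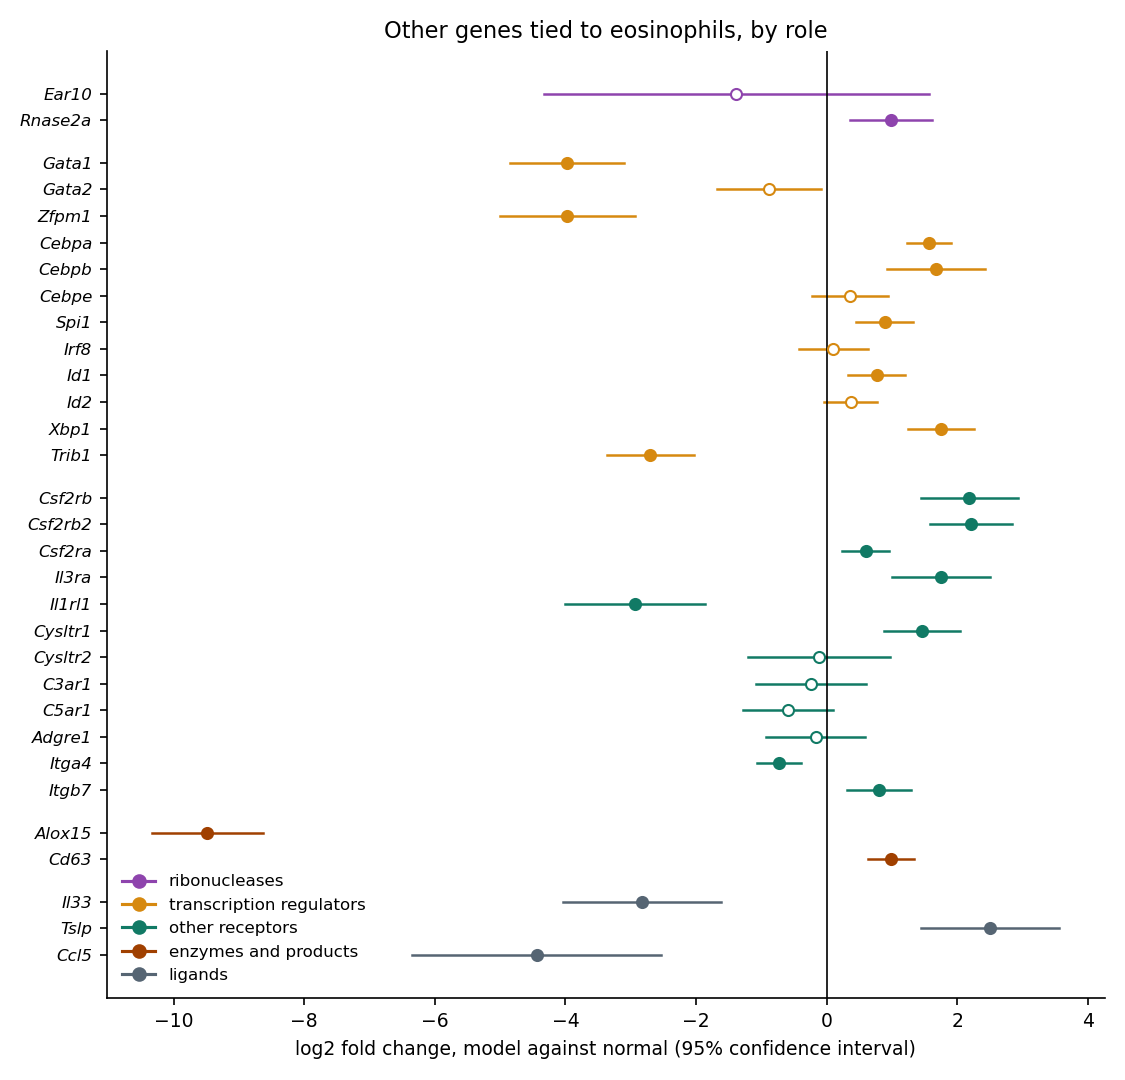
Log2 fold change in model against normal (horizontal axis) with 95% confidence intervals from edgeR for the other listed genes tested, coloured by role; filled points passed the call rule. Gata1, Zfpm1, Trib1, Il1rl1, Alox15, Il33 and Ccl5 lie below -2, and Csf2rb, Csf2rb2 and Tslp above 2.

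Of 10 further ribonucleases of the family listed, 4 were rows of the table and 2 were tested in model against normal. Ear10, on chromosome 14 between Ear1 and Ear2, had 258, 178 and 1 counts in the normal libraries, while the third normal library had 144 CPM of Ear2. It had 97, 57 and 38 counts in model, 40, 24 and 29 in QJSB and 44, 45 and 40 in leucogen. Model against normal was not called (log2 fold change -1.38, adjusted p = 0.400), and was called lower without the third normal library (-1.95, adjusted p = 0.00965). Ear10 was called lower in QJSB than in leucogen (-1.01, adjusted p = 0.0368), where 24.6% of all genes were called, and the call was kept under 7 of 15 alternatives. Of the 50-base words in its annotated transcripts, 39.9% also occurred in another gene, so the levels of Ear10 are uncertain like those of Ear1 and Ear2. Rnase2a, whose coding sequence is 79.7% identical to that of Ear2, went the other way, with 39.2, 47.1 and 42.9 CPM in normal and 122, 79.0 and 54.2 CPM in model (log2 fold change 0.99, adjusted p = 0.0206). Its call was lost without the first or the third normal or the second model library (adjusted p from 0.0504 to 0.0745).

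Marker lists of other marrow cells moved in both directions in model against normal, where 19% of all genes were called lower and 16.1% higher. All 7 erythroid markers were called lower, as were 6 of 7 B lineage markers and 4 of 12 late neutrophil markers. Of 7 basophil and mast cell markers, 6 were called lower, and their summed level was 212 to 270 CPM in normal and 61.6 to 101 in model. The summed erythroid level was 11142 to 12527 CPM in normal and 74.8 to 719 in model, and the B lineage level 1309 to 1334 and 12.1 to 98.6 CPM. All 7 promyelocyte markers were called higher, with a summed level of 755 to 969 CPM in normal and 6694 to 9667 in model, while 5 of 10 monocyte and macrophage markers were called lower and 4 higher. The part of the changed cell composition in their levels was not tested.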

How the data were processed

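RNA of femoral bone marrow cells was sequenced after removal of ribosomal RNA, as strand-specific libraries on an Illumina instrument. The authors cleaned the reads (Seqtk) and aligned them (Hisat2) to the mouse genome GRCm38.p4, named mm10 per the labels, while the counting program, its strand setting and the annotation release are not given in the sources used here. The deposited read counts are whole numbers per gene and library without normalization. The deposited FPKM were computed by the authors from mapped fragments, transcript length and total fragments. Columns were assigned to groups by their headings, and 0 columns of samples were left unused. Library totals were 11172547 to 18545198 counts (median 14821308), and depth covers counting error only. Labels describe biological replicates, so p-values measure the spread between 3 mice.

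Counts were tested in R 4.3.3 with edgeR 4.0.16 (filterByExpr, TMM, robust glmQLFit, glmQLFTest), fitting the libraries of the groups compared, with Benjamini-Hochberg adjustment over all genes. Standard errors were the log2 fold change over the root of F. Alternatives were DESeq2 1.42.0, its size factors, total counts, other filters (none, or a mean count of 10), a joint fit of all 12 libraries, a replicate block, leaving out each library, and limma-trend 3.58.1 on log2(FPKM + 0.1) and log2(FPKM + 1) where FPKM averaged 0.1 or more. The pipeline was tested on simulated counts. Same-numbered QJSB and model libraries deviated together (r = 0.426, 0.123 and 0.107 over 15310 genes), as did those of QJSB and leucogen (0.181, 0.134 and 0.078). In the other comparisons r ran from -0.122 to 0.106. No correlation was computed between libraries of different number, so a pairing is not established, and the replicate block rests on these correlations alone.

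The 9 genes, the lists and the naming rule were chosen with earlier results of these data known. Named from each other list were at most the 3 largest changes called in model against normal, and Il5, Ccl11, Ccl24, Gata1, Gata2, Cebpe, Spi1, Csf2rb, Csf2ra, Alox15 and Ear10 in any case. The 10 most alike genes were sought among those with a mean of at least 1 CPM, with log2 CPM taken at a prior count of 2.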

Additional observations from a re-analysis of the deposited data

How the results depend on the processing

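In model, QJSB and leucogen against normal the 8 genes other than Siglecf stayed lower under every alternative run. They stayed called too, except Epx in QJSB against normal, which lost its call with total counts, without a filter and without any 1 normal library or the second or the third QJSB library. The count of members called moved in leucogen against model, from 0 to 1 over the libraries left out, and in QJSB against leucogen, from 0 to 2. The values that turned sign were not called in the full comparisons, and of their turned values 2 were called, Prg2 and Ear6 in QJSB against leucogen without the first QJSB library. The causes were not tested. By limma-trend on log2(FPKM + 0.1) the sign turned in model against normal for Ear10 (0.24), in QJSB against model for Prg2 (-0.024), Prg3 (-0.24) and Ear6 (-0.27), in leucogen against model for Prg2 (-0.024) and Ccr3 (-0.066), and in QJSB against leucogen for Prg2 (-4e-04) and Ear6 (-0.24). With log2(FPKM + 1) it turned in QJSB against model for Prg2 (-0.0204), Prg3 (-0.15) and Ear6 (-0.15), in leucogen against model for Prg2 (-0.026) and Ccr3 (-0.028), and in QJSB against leucogen for Ear6 (-0.093). With the replicate block it turned in QJSB against model for Prg3 (-0.14) and Ear6 (-0.17), in leucogen against model for Ear2 (0.0304) and Ear6 (0.11), and in QJSB against leucogen for Prg2 (-0.11), Ear6 (-0.32) and Il5ra (-0.087). With total counts it turned in leucogen against model for Prg2 (-0.18) and Ccr3 (-0.099), and in QJSB against leucogen for Ear1 (0.016). In leucogen against model it also turned for Prg2 without a filter (-0.002) and for Ear6 with DESeq2 size factors (0.0197) and DESeq2 (0.021). Over the libraries left out, the log2 fold change of Siglecf in model against normal ran from -0.38 to 0.0035. In QJSB against model the ranges, which include leaving out both first libraries, were -0.75 to 0.78 for Prg2, -0.83 to 0.50 for Prg3, -0.68 to 1.18 for Epx, -0.24 to 0.85 for Ear1, -0.60 to 0.33 for Ear2, -1.11 to 0.55 for Ear6, -1.16 to 0.28 for Il5ra and -0.60 to 0.011 for Ccr3. In leucogen against model they were -0.27 to 0.48 for Prg2, -0.45 to 0.0904 for Prg3, -0.48 to 0.44 for Ear2, -0.32 to 0.51 for Ear6, -0.75 to 0.21 for Il5ra and -0.24 to 0.45 for Ccr3. In QJSB against leucogen they were -0.77 to 0.70 for Prg2, -0.67 to 0.59 for Prg3, -0.35 to 0.20 for Ear1, -0.19 to 9e-04 for Ear2, -1.10 to 0.43 for Ear6, -0.92 to 0.59 for Il5ra and -0.25 to 0.018 for Siglecf. The replicate block changed the call of no member. Over all genes, QJSB against model had 0 calls, against 8 by DESeq2, 18 with the block, 3 without the first QJSB library and 23 without both first libraries. Leucogen against model had 3275 calls, against 1239 without the third and 1724 without the first leucogen library, and QJSB against leucogen had 3511, against 1544 and 2157. Total counts moved the median of all genes by over 0.1 on the log2 scale, from -0.05 to -0.22 in leucogen against model and from 0.02 to 0.14 in model against normal. Among other named genes in model against normal, the calls of Csf2ra, Id1, Rnase2a and Il33 were lost under 1 to 4 of 15 alternatives, and Gata2 and Cebpe were called without the first model library. Depth limits Ear1 and Il5ra, with as few as 3 and 4 counts in a cyclophosphamide library.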

Other observations

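Basophil and mast cell genes, which share Gata2 and the Il3 and Il33 receptors with eosinophils, changed unequally among themselves in model against normal by edgeR. Cd200r3, an activating receptor of basophils, was called lower by 4.43 on the log2 scale (adjusted p = 5.7e-05) and Prss34, a basophil protease, by 3.54 (adjusted p = 7.0e-05). Fcer1a, a chain of the IgE receptor, was lower by 1.79 (adjusted p = 0.0223), while Ms4a2, another chain of that receptor, stood at -0.10 (adjusted p = 0.898). Ms4a2 varied widely within groups, with 23.3, 8.24 and 29.5 CPM in normal and 17.1, 29.7 and 9.87 CPM in model, so its change is poorly determined.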
